A study of Homo sapiens with 3 samples.

Results

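Codanin-1 peaks far from GATA1 are those whose edge lay 500000 bp or more from the edge of every GATA1 peak on the same chromosome, on chromosomes 1 to 22. They numbered 3180 of 14247 autosomal codanin-1 peaks (22.3%), out of 14365 peaks in the whole codanin-1 list, and are called far peaks here. They were chosen by the measured positions of both lists, so their distance from GATA1 is a description and not a finding. The peaks were called by chromatin immunoprecipitation and sequencing (ChIP-seq) in K562, a human erythroleukaemia cell line that carries the BCR-ABL1 fusion. The codanin-1 library was made with Cod1, a homemade antibody against residues 123 to 142 in the N-terminal part of the protein. The GATA1 library was made with the antibody N6. Each immunoprecipitation started from 30000000 cells that had been cross-linked with 1% formaldehyde for 10 minutes. There was 1 library per antibody, so replicate error is unknown throughout and no p-value is given. No peak list of the rabbit IgG library was at hand, so the peaks were not compared with that control.

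Codanin-1 is the product of CDAN1, a gene affected in congenital dyserythropoietic anaemia type I, a disease in which erythroblast chromatin has a spongy appearance. It binds the histone chaperone ASF1, which hands newly made histones to the factors that assemble nucleosomes. Codanin-1 is not known as a sequence-specific DNA-binding protein. GATA1 is a zinc-finger transcription factor that binds GATA motifs at promoters and enhancers of erythroid genes. Transcription factor peaks are usually dense in gene-rich parts of the genome and sparse in gene-poor parts.

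Coordinates are those of the deposited lists on the build hg19, counted from 1. No annotation of that build was used, so peaks are named by position and no gene is assigned to them. At the 500000 bp limit the 3 nearest far peaks lay 500068, 500176 and 500365 bp from GATA1, at chr1:77835795-77836105, chr6:109274263-109274556 and chr1:188843453-188843593. The 3 peaks just short of it lay at 499646, 499323 and 499294 bp, at chr1:117751951-117752051, chr3:46171949-46172071 and chr12:51784642-51785063. In the same order, fold enrichments were 3.88, 4.17 and 4.01 for the former and 4.14, 4.29 and 4.01 for the latter. Most far peaks were well past the limit. Their median distance to GATA1 was 1231680 bp, 1912 of them (60.1%) were 1 Mb or more away, 266 were 5 Mb or more away and 49 were 10 Mb or more away. The 5 farthest were all on chromosome 5, between 115103298 and 117440236, at 15.1 to 16.4 Mb from GATA1. The farthest of all, at 116462842 to 116462942, was 101 bp wide with a fold enrichment of 4.68.

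Every autosome held far peaks, but in very different numbers. The share of a chromosome's codanin-1 peaks that were far was highest on chromosome 13, with 45 of 79 peaks (57.0%, 95% exact binomial interval 45.3 to 68.1). Shares over 40% were also found on chromosomes 15 (47.2%, 185 of 392), 11 (46.4%, 209 of 450), 2 (45.6%, 328 of 719), 18 (44.8%, 124 of 277), 8 (41.9%, 184 of 439) and 14 (41.3%, 38 of 92). The intervals of chromosomes 8, 11, 14, 15, 18 and 2 overlapped each other and that of chromosome 13. At the other end, chromosome 22 had 34 far peaks of 1186 (2.87%, 1.99 to 3.98) and chromosome 19 had 22 of 578 (3.81%, 2.40 to 5.71), and the intervals of these 2 chromosomes overlapped. Against the 22.3% of all autosomes, the interval lay above on 13 chromosomes and below on 8, and held 22.3% on 1, chromosome 16. The intervals cover counting error only and treat neighbouring peaks as independent.

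The makeup of the far set by chromosome was unlike that of the other 11067 autosomal peaks. Chromosome 1 supplied the most far peaks, 340 (10.7% of the set), but supplied 19.7% of the other peaks. Chromosome 2 came next with 328 (10.3%), against 3.53% of the other peaks, and chromosome 5 with 244 (7.67%), against 3.99%. Chromosome 22, on which BCR lies, supplied 1.07% of far peaks and 10.4% of the others, and chromosome 7 supplied 5.13% and 10.2%. Over the 22 chromosomes the far share was lower where GATA1 peaks were denser (Spearman's rho -0.84), which follows in part from the choosing rule, since more GATA1 peaks leave less sequence far from them. Chromosome 13 had 0.258 GATA1 peaks per Mb and chromosome 22 had 27.4.

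**Figure D1:**
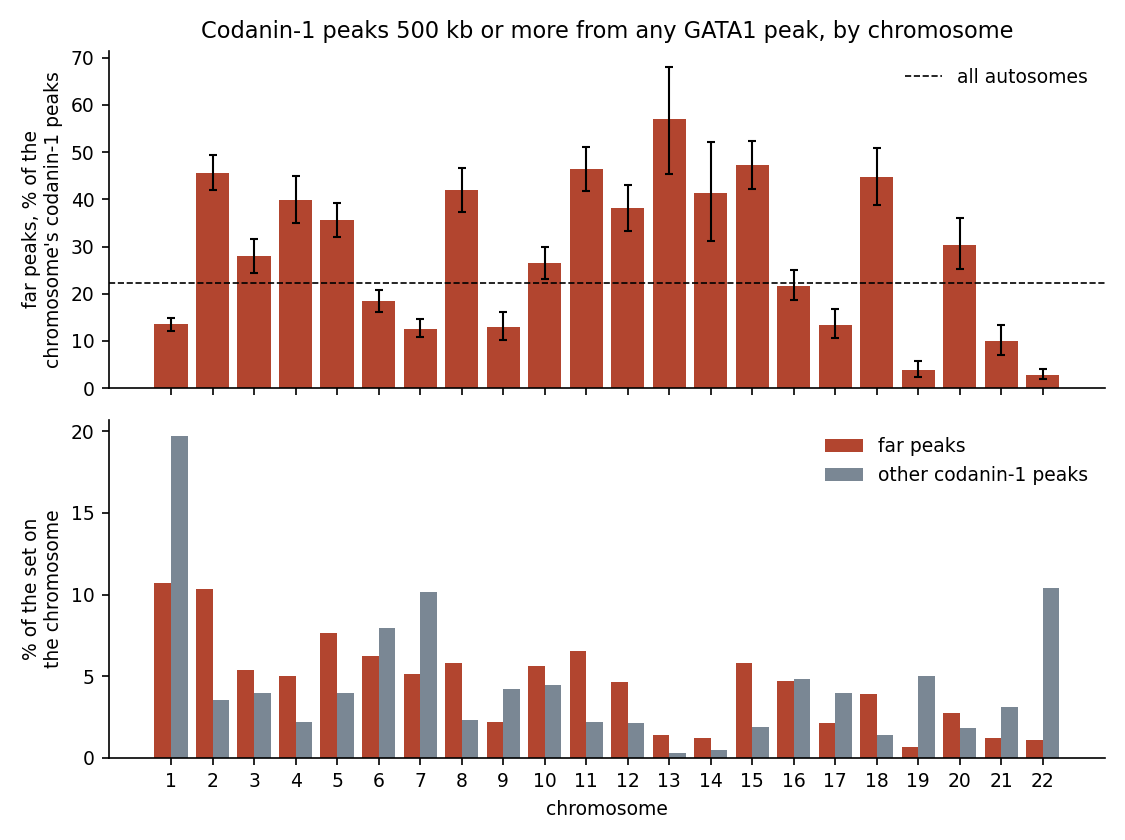
Top, percent of each autosome's codanin-1 peaks that lay 500 kb or more from any GATA1 peak (bars, with 95% exact binomial intervals), with the 22.3% of all autosomes as a dashed line. Bottom, percent of the 3180 far peaks and of the 11067 other peaks on each chromosome; chromosome 2 holds 10.3% of the far and 3.53% of the other peaks, and chromosome 22 holds 1.07% and 10.4%.

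Arms with known copy loss in K562 held few codanin-1 peaks. The far share was 57.0% on chromosome 13 (45 of 79, 45.3 to 68.1) and 41.3% on chromosome 14 (38 of 92, 31.1 to 52.1). Both intervals lay above the 22.3% of all autosomes. On chromosome 9 below 40 Mb the share was 29.8%, on 14 of 47 peaks and with no interval given. On the whole of chromosome 9 it was 12.9% (69 of 533). Between GATA1 peaks, per Mb of sequence that lay 500 kb or more from them, chromosome 13 had 0.455 far peaks, chromosome 14 had 0.479 and the whole of chromosome 9 had 0.689, the 3 lowest values. The highest were 3.75 on chromosome 15, 3.16 on chromosome 16 and 2.86 on chromosome 1, and the median of the autosomes was 1.92. Unassembled sequence counts towards these lengths, and DNA copy number was not measured, so its part in these densities was not tested.

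Codanin-1 peaks were sparser the farther the sequence lay from GATA1. Between the first and last GATA1 peak of each chromosome, 1826 Mb of 2779 Mb (65.7%) was 500 kb or more from GATA1, and this sequence held 3164 far peaks, or 1.73 per Mb. The remaining sequence held 11011 other codanin-1 peaks, or 11.6 per Mb. The density of peaks that did not overlap GATA1 was 36.5 per Mb within 10 kb of a GATA1 peak, 10.3 at 50 to 100 kb and 5.29 at 250 to 500 kb. Among far peaks it was 3.34 per Mb at 0.5 to 1 Mb, 1.95 at 1 to 2 Mb, 1.19 at 2 to 5 Mb, 0.759 at 5 to 10 Mb and 0.581 beyond 10 Mb. Each distance class had a lower density than the class before it.

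Centromeres and other unassembled blocks have no mapped reads, and the lists do not mark them. When the 238 parts of 2 Mb or more that were free of both lists (902 Mb in all) were left out, densities of far peaks were 4.10, 3.09, 2.90, 2.31 and 1.66 per Mb in the same 5 classes. Leaving out peak-free sequence raises a density by construction. The order of the classes was kept, and the fall from the first class to the last was smaller than over the whole span. These parts were picked by the lists themselves and not by marked assembly gaps, so the part of unassembled sequence in the fall was not tested.

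**Figure D2:**
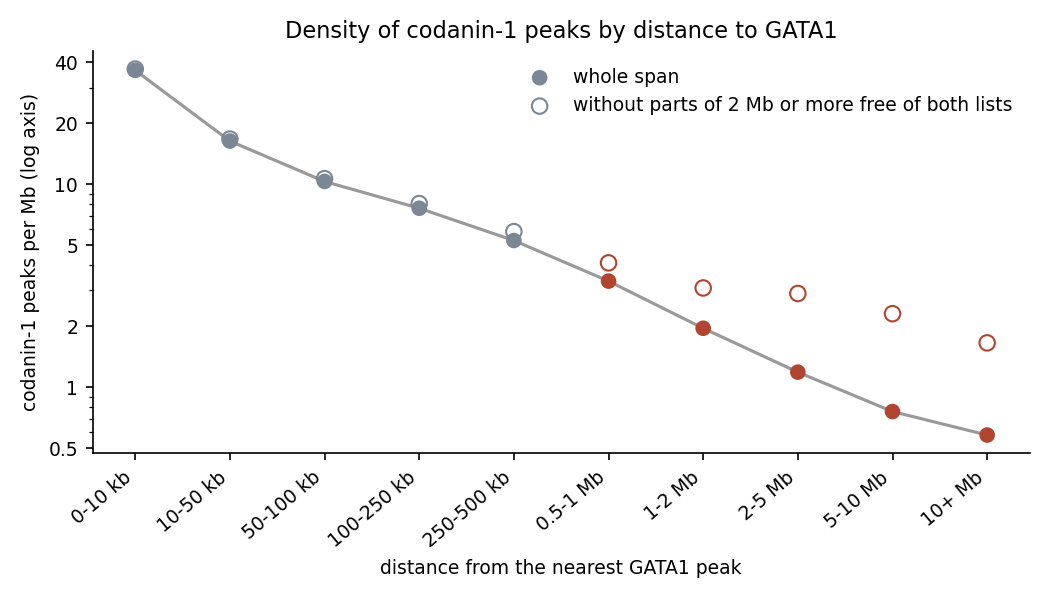
Codanin-1 peaks per Mb (log axis) by distance from the nearest GATA1 peak, with far classes in red; peaks that overlap a GATA1 peak are not counted. Filled points use the whole span between the outermost GATA1 peaks and go from 36.5 to 0.581 per Mb, and open points leave out parts of 2 Mb or more free of both lists and go from 37.1 to 1.66.

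Spacing between codanin-1 peaks was wider among far peaks. The median gap from a far peak to the nearest codanin-1 peak of any kind was 85792.5 bp (95% order-statistic interval 80275 to 91054), against 12992 bp (12322 to 13494) for the other peaks, a ratio of 6.60. The median was larger for far peaks on 22 of 22 chromosomes, with the smallest contrast on chromosome 15 (48454 against 47678 bp). A far peak with no other codanin-1 peak within 100 kb is called isolated. There were 1459 isolated far peaks (45.9%, 95% exact interval 44.1 to 47.6), against 983 of the other peaks (8.88%, 8.36 to 9.43) and a background of 17.1% over all autosomal codanin-1 peaks. No codanin-1 neighbour lay within 500 kb of 395 far peaks (12.4%) and 75 other peaks (0.678%), against a background of 3.3%, or within 1 Mb of 163 far peaks (5.13%) and 23 other peaks (0.208%), against a background of 1.31%. The gap was larger in each class farther from GATA1, with no break at the limit: its median was 27433 bp at 100 to 250 kb, 34962 bp at 250 to 500 kb, 50370 bp at 0.5 to 1 Mb and 91019 bp at 1 to 2 Mb. Of the peaks at 250 to 500 kb, the nearest class that is not far, 21.8% were isolated. Isolation and distance from GATA1 are thus linked. Both may be common where peaks of either list are sparse, which was not tested.

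Isolated far peaks were frequent on chromosomes 22 (28 of 34, 82.4%), 14 (31 of 38, 81.6%) and 13 (31 of 45, 68.9%). They were least frequent on chromosomes 15 (31.4%), 18 (32.3%), 1 (32.6%) and 16 (32.9%). The most isolated far peak, at chr20:11415784-11415887, had no other codanin-1 peak for 6.17 Mb and no GATA1 peak for 8.96 Mb, and its fold enrichment was 4.47. It was followed by chr14:45431198-45431499 (5.10 Mb to the nearest codanin-1 peak), chr3:106352666-106352770 (5.07 Mb), chr12:19426871-19427117 (4.63 Mb) and chr14:32545399-32545588 (4.29 Mb). The last 4 had fold enrichments of 4.11, 4.07, 3.91 and 3.95, near the median of all far peaks. Of the 3180 far peaks, 58 (1.82%) were nearer to a GATA1 peak than to any other codanin-1 peak. By the rule this needs a codanin-1 gap of over 500 kb, and no such share is given for the other peaks.

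Isolated far peaks were narrower than far peaks with a neighbour at 10 to 100 kb, with a median width of 158 bp (148 to 168) against 196 bp (184 to 212). Their median fold enrichment was 4.06 (4.03 to 4.09) against 4.01 (3.98 to 4.04). The 362 far peaks with another codanin-1 peak within 10 kb (11.4%, against 45.0% of other peaks and a background of 37.5%) had a median width of 169 bp (153 to 198) and a fold of 4.06 (4.01 to 4.12). The intervals of the isolated peaks and of those with a neighbour within 10 kb overlapped, for width and for fold.

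**Figure D3:**
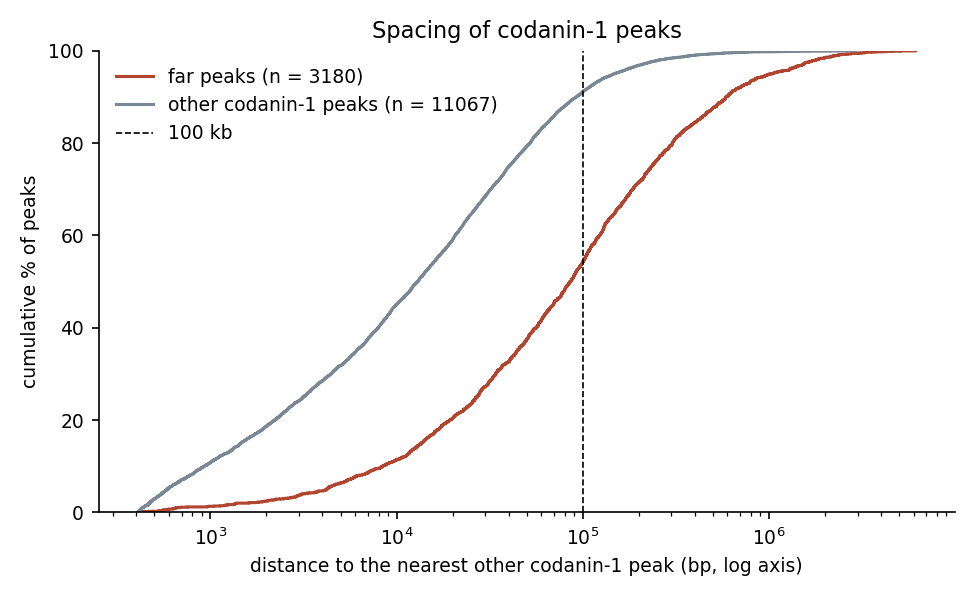
Cumulative percent of peaks (vertical axis) against the distance to the nearest other codanin-1 peak (bp, log axis), for the 3180 far and the 11067 other peaks. At the dashed line of 100 kb, 45.9% of far peaks and 8.88% of other peaks still have no neighbour.

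Far peaks seldom formed clusters. A cluster is a chain of 3 or more far peaks in which each gap is at most 50 kb. There were 156 clusters with 571 far peaks (18.0%, 95% exact interval 16.6 to 19.3), while 2009 far peaks (63.2%) had no far peak within 50 kb and 600 (18.9%) stood in pairs. Chained in the same way, the other codanin-1 peaks had 7151 of 11067 (64.6%) in clusters. Of those other peaks, 2304 (20.8%) were single and 1612 (14.6%) stood in pairs, so the pair shares differed less than the single shares. With both kinds chained together, 587 far peaks (18.5%) were in a chain of 3 or more, against a background of 54.4%. The largest chain held 9 among far peaks and 705 among other peaks. Clusters of far peaks spanned 4.61 to 173 kb, with a median of 50.4 kb. Clusters were found on 19 chromosomes, most on chromosomes 1 (26 clusters), 15 (16) and 2 (15), and 0 were found on chromosomes 14, 19 and 22.

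The fullest cluster, at chr1:234844871-234929993, held 9 far peaks in 85.1 kb, 1228 kb or more from GATA1. Its peaks were 101 to 937 bp wide with fold enrichments of 3.18 to 4.19. Also on chromosome 1, 9 far peaks lay in 142 kb at 180100143 to 180241908, with folds of 3.75 to 4.83. On chromosome 18, 8 far peaks lay in 141 kb at 10049413 to 10190237, with folds of 3.68 to 5.52. Clusters of 7 far peaks numbered 5, and the 2 of shortest span were chr1:39043004-39117863 (7 peaks in 74.9 kb, folds 3.61 to 4.01) and chr1:14075732-14156405 (7 peaks in 80.7 kb, folds 3.82 to 6.03). The others of that size were chr18:10545551-10638721, chr18:10242519-10351086 and chr6:160992730-161112570. The cluster at 14 Mb held the fourth widest far peak, of 1037 bp. Members of clusters had a median fold of 3.99 and a median width of 201 bp, against 4.05 and 170 bp for the far peaks outside clusters. The same order held among the other codanin-1 peaks, with 3.91 and 255 bp inside clusters and 4.03 and 199 bp outside.

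GATA1-free stretches are the runs between adjacent GATA1 peaks. A far peak between GATA1 peaks can only lie in a stretch of over 1 Mb, and 469 stretches were that long, with a median length of 2.92 Mb. They held a median of 4 far peaks each, 77 held 0 and 120 held 10 or more, and those 120 held 2092 far peaks (65.8%). Only 16 far peaks lay outside all stretches, 5 before the first and 11 after the last GATA1 peak of a chromosome. Length and number of far peaks were related across the 469 stretches (Spearman's rho 0.59). A longer stretch also has more sequence past the limit.

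The longest stretch, on chromosome 3 from 75834812 to 111552837 (35.7 Mb), was nearly empty of codanin-1 too. It held 4 codanin-1 peaks, all far, and had a part of 22.6 Mb free of both lists, from 77372236 to 99979721, which holds the centromere. The next longest stretches held more peaks. On chromosome 5, 38 far peaks lay in 32.9 Mb from 100024648 to 132961513, and on chromosome 4, 30 lay in 30.5 Mb from 149415468 to 179874678. A second stretch of chromosome 4, from 80274738 to 106370210 (26.1 Mb), held 25 far peaks. Chromosome 2 from 182549389 to 208475046 (25.9 Mb) held 16, chromosome 10 from 101066619 to 126558959 (25.5 Mb) held 25, and chromosome 3 from 114010278 to 139181072 (25.2 Mb) held 24. Chromosome 18 from 51267758 to 76273992 (25006235 bp) held 19.

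Chromosome 13 had the remaining stretches of the first 10. The one from 28367771 to 52848949 (24.5 Mb) held 11 far peaks, and the one from 57717278 to 81280350 (23.6 Mb) held 4 and had an empty part of 15.9 Mb. Outside the first 10, the stretch of chromosome 1 from 121485422 to 142538189 (21.1 Mb) held 0 codanin-1 peaks, and that of chromosome 9 from 47186515 to 66454771 (19.3 Mb) held 1. These stretches, named after their values were seen, span the centromere and the large heterochromatin block beside it on each chromosome. Of the 469 stretches, 19 had no codanin-1 peak at all. Among stretches with no part of 2 Mb or more free of both lists, the longest was on chromosome 1 from 55072527 to 67859212, with 33 far peaks in 12.8 Mb.

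The number of far peaks varied between stretches of like length, such as 48 and 5 in stretches of 12.9 and 12.6 Mb on chromosomes 2 and 14. The 3 stretches with the most far peaks, also chosen after their values were seen, were 5.57, 12.9 and 32.9 Mb long. Chromosome 18 from 5630296 to 11201959 held 57 far peaks in 5.57 Mb, or 12.5 per Mb of its sequence that was 500 kb or more from GATA1. Of these 57, 37 were in 6 clusters, and the median gap to the nearest codanin-1 peak was 14.7 kb, against 12992 bp for codanin-1 peaks that are not far. Their folds ran from 3.51 to 5.52 with a median of 4.06, and their widths from 101 to 584 bp with a median of 159 bp. Chromosome 2 from 162280054 to 175207074 held 48 far peaks in 12.9 Mb (4.02 per far Mb), with 9 of them in 3 clusters. The chromosome 5 stretch named above held 38 (1.19 per far Mb), with 3 in 1 cluster. The density in the chromosome 18 stretch was above the 11.6 per Mb of sequence within 500 kb of GATA1, but it was not the densest stretch. Over its whole length it held 10.9 codanin-1 peaks per Mb. Chromosome 1 from 232519621 to 236157506 held 12.4 per Mb, with 34 far peaks. Chromosome 6 from 159925507 to 161834425 held 18.3 per Mb, with 17 far peaks.

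**Figure D4:**
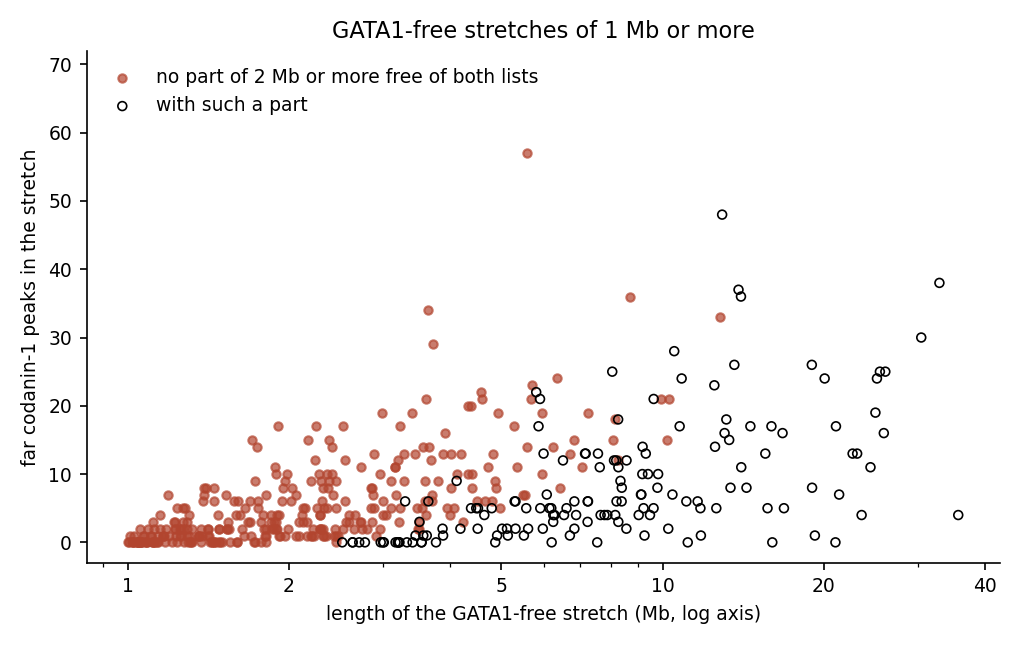
Number of far codanin-1 peaks (vertical axis) in each of 469 GATA1-free stretches of 1 Mb or more, against the stretch's length in Mb (log axis); open points have a part of 2 Mb or more free of both lists. The highest point, 57 far peaks in 5.57 Mb, is on chromosome 18, and the rightmost, 4 far peaks in 35.7 Mb, is on chromosome 3.

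The width of a peak was not used to choose the far set. Far peaks were narrow, with a median width of 175.5 bp (167 to 183), against 233 bp (228 to 237) for the other peaks. The minimum width of the list, 101 bp, was found in 751 far peaks (23.6%, 22.1 to 25.1) and 1660 other peaks (15.0%, 14.3 to 15.7), against a background of 16.9%. At the wide end, 118 far peaks (3.71%) and 1277 other peaks (11.5%) were 500 bp or wider, against a background of 9.79%. A width of 1000 bp was reached by 5 far peaks (0.157%) and 204 other peaks (1.84%), against a background of 1.47%. The 5 widest were at chr6:909412-910975 (1564 bp), chr2:70202414-70203487 (1074 bp), chr4:4291079-4292124 (1046 bp), chr1:14116388-14117424 (1037 bp) and chr6:6971155-6972168 (1014 bp). All 5 lay under 1 Mb from GATA1, at 529 to 968 kb. The far median was the smaller on 18 of 22 chromosomes, and the larger on chromosomes 13, 15, 18 and 19.

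Width differed little across the limit. The median was 424 bp in codanin-1 peaks that overlapped GATA1, 265 bp under 10 kb, 221 bp at 10 to 100 kb, 195 bp at 100 to 250 kb and 201 bp (188 to 211) at 250 to 500 kb. In far peaks it was 191 bp (181 to 204) at 0.5 to 1 Mb, 175 bp at 1 to 2 Mb, 165.5 bp at 2 to 5 Mb and 136.5 bp (121 to 157) at 5 Mb or more. The classes on either side of the 500 kb limit had overlapping intervals. The share at the minimum width went from 21.8% at 0.5 to 1 Mb to 30.8% at 5 Mb or more, and was 19.9% at 250 to 500 kb.

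**Figure D5:**
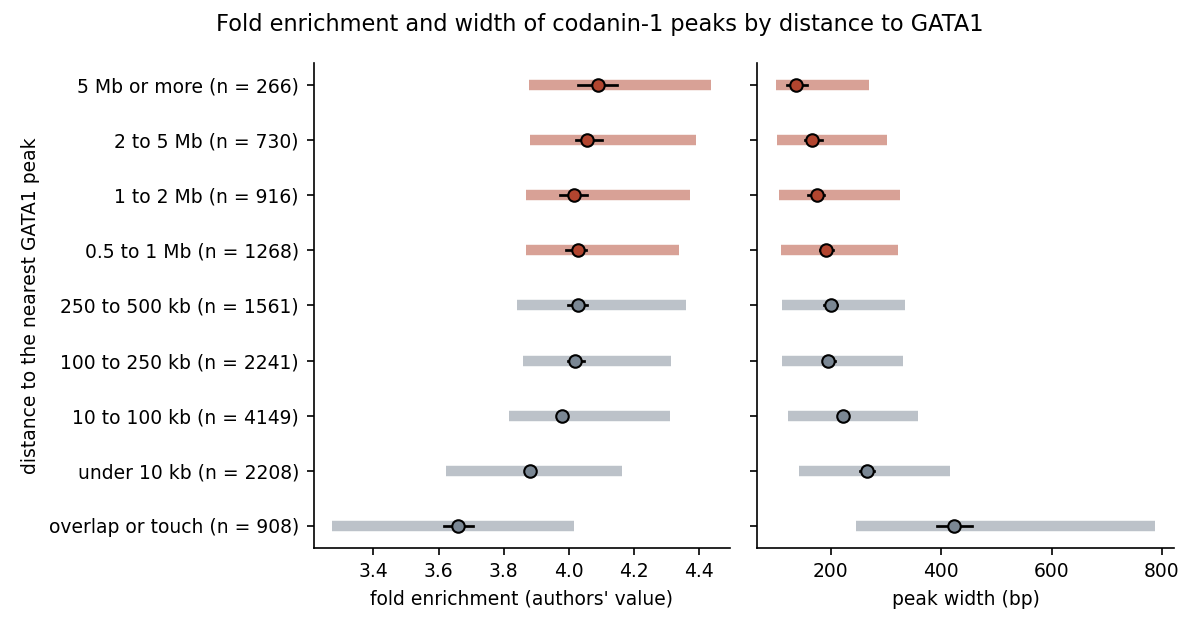
Fold enrichment (left) and width in bp (right) of autosomal codanin-1 peaks by distance to the nearest GATA1 peak, far classes in red; points are medians, thick bars quartiles and black lines 95% intervals of the median. Median fold is 3.66 for overlapping peaks and 4.02 to 4.09 from 100 kb outward, while median width goes from 424 bp to 136.5 bp.

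Fold enrichment, the authors' ratio of the library to the caller's background, was not used by the rule either. Its median was 4.04 in far peaks (4.02 to 4.05, range 3.15 to 8.09) and 3.95 in the other peaks (3.94 to 3.96, range 1.36 to 7.45), a difference of 0.03 on the log2 scale. It was smaller against distant peaks. Against the peaks at 250 to 500 kb, whose median was 4.03, the difference was 0.0022 on the log2 scale, with an interval of -0.0044 to 0.0088 from the far median. The median was 3.66 in overlapping peaks, 3.88 under 10 kb and 3.98 at 10 to 100 kb. The far median was the higher on 17 of 22 chromosomes, and the lower on chromosomes 1, 11, 18, 19 and 21. Averaged within classes of −log10 p the difference was 0.010, and within classes of width it was 0.015. The median −log10 q was 1.60 in both sets, and 715 far peaks (22.5%) and 22.8% of the other peaks had a −log10 q of 2 or more, against a background of 22.8%.

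The sets differed more at the low end of fold enrichment than in the middle. A fold under 3.5 was found in 67 far peaks (2.11%, 1.64 to 2.67) and 1066 other peaks (9.63%, 9.09 to 10.2), against a background of 7.95%. It was found in 37.3% of peaks that overlapped GATA1, 15.9% of those under 10 kb, 5.88% at 10 to 100 kb, 3.30% at 100 to 250 kb and 3.65% at 250 to 500 kb. Among far peaks it was 2.29% at 0.5 to 1 Mb, 2.40% at 1 to 2 Mb, 1.78% at 2 to 5 Mb and 1.13% at 5 Mb or more. Chromosomes 9 and 22 held 394 of the 1066 low-fold other peaks (37.0%), and without these chromosomes the share was 7.11%.

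At the high end, a fold of at least 5 was reached by 183 far peaks (5.75%, 4.97 to 6.62) and 498 other peaks (4.50%, 4.12 to 4.90), against a background of 4.78%. The share was 5.58% at 100 to 250 kb, 5.83% at 250 to 500 kb and 5.05% at 0.5 to 1 Mb, so the share of all far peaks lay between those of the classes at 100 to 250 kb and 250 to 500 kb. A fold of at least 6 was reached by 18 far peaks (0.566%, 0.336 to 0.893) and 26 other peaks (0.235%, 0.154 to 0.344), against a background of 0.309%. Ranked by fold, far peaks made up 7 of the first 10 autosomal codanin-1 peaks (70%, 34.8 to 93.3). They made up 39 of the first 100 (39.0%, 29.4 to 49.3) and 260 of the first 1000 (26.0%, 23.3 to 28.8), against 22.3% of the list. Median fold was highest in the narrowest class of width, 101 to 108 bp, in which 30.1% of peaks were far. The interval of the first 1000 lay below that share, that of the first 100 held it and that of the first 10 lay above it. The part of width in this ranking was not tested. A −log10 q of 5 or more was found for 8 far peaks (0.252%, 0.109 to 0.495) and 16 other peaks (0.145%, 0.0827 to 0.235), against a background of 0.168%, with overlapping intervals.

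The far peak of highest fold, at chr17:11481351-11481472, had a fold of 8.09 and a −log10 q of 8.35, both the highest of the set. It stood 731 kb from GATA1 and 991 kb from the nearest codanin-1 peak. The next, at chr8:134226138-134226265 (8.01-fold), was 546 kb from GATA1 and 268 kb from another codanin-1 peak. It was followed by chr10:78863258-78863389 (7.32-fold), which was 1287 kb from GATA1 and 37.3 kb from a codanin-1 peak. Then came chr12:104872463-104872590 (6.84-fold), chr2:14177342-14177462 (6.65-fold), chr16:7948227-7948376 (6.63-fold) and chr3:129209201-129209546 (6.60-fold). The last of these lay 9.97 Mb from GATA1, the greatest distance among the first 10. Next were chr7:142272085-142272195 (6.41-fold), chr12:89109056-89109230 (6.39-fold) and chr1:235136218-235136333 (6.37-fold). These 10 peaks were 111 to 346 bp wide and lay on 9 chromosomes. Of the 10, 6 were isolated, against 45.9% of all far peaks, and 4 had a codanin-1 neighbour within 100 kb.

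How far a peak lies from GATA1 depends on how many GATA1 peaks were called. With GATA1 peaks of a −log10 q of at least 2 alone, 7570 codanin-1 peaks (53.1%) were 500 kb or more from GATA1. The GATA1 list had 5049 autosomal peaks and the depth of both libraries is unknown, so absence of a GATA1 peak does not show absence of GATA1. In the reverse direction 76 of the 5049 autosomal GATA1 peaks (1.51%, 1.19 to 1.88) lay 500 kb or more from every codanin-1 peak. The lists differ in length, so the shares of 22.3% and 1.51% do not rank the proteins by how often each is found without the other.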

How the data were processed

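Peak lists of 2 libraries were used, 1 per antibody (Cod1 against codanin-1, and GATA1). Per the submitters' processing notes the authors used BWA, MACS2 and the build hg19. No version is named, and the caller's background library, threshold, filters and pooling were not given in the sources used here. The deposited lists have 9 columns and no header. The fold enrichment (a ratio), the −log10 p and the −log10 q (p-value and q-value of a peak) are the authors' deposited values. The deposited score equalled 10 times −log10 q, rounded down, in all 14365 and 5164 rows and was not used. Depth is unknown.

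Distances are bases between edges on the same chromosome, and were tested on simulated data. Shares carry 95% exact (Clopper-Pearson) intervals and medians 95% order-statistic intervals, for counting error alone. No test over samples was possible, since each antibody had a single library and peaks cannot stand in for replicates. Members, lists and limits were chosen with earlier results of these data known. Named regions are the 10 far peaks of highest fold, the 5 widest, farthest and most isolated, the 5 fullest clusters (ties by shorter span), the 10 longest stretches and the 3 peaks on either side of the limit. Alternatives changed the distance limit and measure, thresholds, merging, chromosomes, cluster gap and isolation distance. Gene and promoter tables supplied are of the build GRCh38.p14, so no gene was assigned and no sequence printed. Python 3.11.15, numpy 2.4.6, pandas 2.3.3, scipy 1.17.1 and matplotlib 3.10.9 were used.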

Additional observations from a re-analysis of the deposited data

Results flagged for a closer look

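Chromosome X was outside the choosing rule, and it held 45 codanin-1 peaks that lay 500 kb or more from every GATA1 peak, of 67 on that chromosome (67.2%, 95% exact interval 54.6 to 78.2). It is given here because the comparisons above did not use these peaks. The 45 peaks had a median fold enrichment of 4.12 and a median width of 120 bp, and the other 22 had 3.89 and 170.5 bp. Chromosome X held 22 GATA1 peaks. Its far share follows in part from the choosing rule, since fewer GATA1 peaks leave more sequence far from them.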

How the results depend on the processing

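The cause of each shift below was not tested beyond the change named. The far minus other fold difference was above 0 under all 13 alternatives, but against peaks at 250 to 500 kb its interval (-0.0044 to 0.0088) spanned 0. Far peaks were narrower than the other peaks, with wider gaps and a larger isolated share, in every alternative that gave both values. Gaps, widths and clustered shares below are those of far peaks unless the other peaks are named. Moving the distance limit to 250 kb made 33.3% of autosomal codanin-1 peaks far, with 38.0% isolated, 23.4% clustered and a median gap of 60719 bp to the nearest codanin-1 peak. At 1 Mb the values were 13.4%, 53.9%, 10.9% and 111422 bp, with a median width of 164 bp. With GATA1 peaks of a −log10 q of at least 2 they were 53.1%, 27.0%, 37.3%, 37128.5 bp and 191 bp, and the longest GATA1-free stretch was 80484726 bp. With codanin-1 peaks of a −log10 q of at least 2, 80.8% of far peaks and 40.7% of the other peaks were isolated (45.9% and 8.88% in the full list). In that list of 3242 peaks, 0.839% of far peaks were clustered. The gap was 411981 bp (59618 bp for the other peaks) and the width 110 bp (133 bp for the other peaks). Without peaks of minimum width, 20.5% were far, 51.0% isolated and 13.4% clustered, and the log2 fold difference was 0.019. The gap was 103367 bp (14067 bp for the other peaks) and the width 236 bp (272 bp for the other peaks). Merging peaks within 1 kb gave 23.3% far and a fold difference of 0.022, and leaving out chromosomes 9 and 22 gave 24.6% and 0.020. The fold difference was 0.010 in classes of −log10 p, 0.015 in classes of width and 0.0022 against peaks at 250 to 500 kb. The isolated share was 62.6% for 50 kb and 28.6% for 200 kb, and the clustered share 6.76% for gaps of 20 kb and 32.7% for 100 kb. The longest stretch without a part of 2 Mb free of both lists was 12786686 bp, and far peaks per Mb were 3.24 when such parts were left out. Midpoint distances, leaving out chromosomes 9, 13 and 14, and leaving out chromosome ends moved no value past its interval. The number of chromosomes whose interval missed the pooled share was 15 to 21 (main 21). That count's alternatives, the comparison with peaks at 250 to 500 kb and the density without empty parts were chosen after seeing the data. No paired analysis was possible because there was 1 library per antibody, and none could be left out.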

Other observations

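Many codanin-1 peaks shared the same pair of deposited values, a fold enrichment of 3.88 with a −log10 q of 1.38. This pair was found in 240 far peaks (7.55%, 95% exact interval 6.65 to 8.52) and 528 other peaks (4.77%, 4.38 to 5.18), against a background of 5.39%. Medians of fold in some classes therefore fall on that value. The median fold of far and other peaks was 3.88 in peaks of 172 to 272 bp and in peaks of 273 to 402 bp. No 2 autosomal codanin-1 peaks were nearer than 406 bp. The nearest codanin-1 peak was itself far from GATA1 for 2981 of 3180 far peaks (93.7%). This follows in large part from the choosing rule, since a close neighbour of a far peak is mostly far too. Far peaks made up 18.0% of the bases covered by autosomal codanin-1 peaks.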
